A study of Mus musculus with 8 samples.

Results

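The beta-like globin locus of the mouse was described here through 4 genes, Hbb-b1, Hbb-bh1, Hbb-bh2 and Hbb-y, and through the KLF1 sites that lie beside them. The genes were the rows with these symbols in both deposited gene tables, which made 4 of 11364 listed genes. The sites were those of the merged ChIP-seq peak table on chromosome 7 between 110.9 and 111.1 Mb (mm9), which made 6 of 5551 sites. The genes were picked by name and the sites by position, with earlier results of these data known, and the rows of both gene tables were joined on Entrez number, length and mean expression. A site is in the table because a peak was called for at least 1 of the proteins compared.

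All cells were derived from K1, an immortalised erythroid line from the fetal liver of Klf1-/- mice, so both groups of cells lack the endogenous factor. K1-E339K-ER cells carry murine KLF1 with the glutamic acid to lysine change E339K of its second zinc finger, fused to an estrogen receptor domain that keeps it out of the nucleus until 4-hydroxytamoxifen (4-OHT) is added. The fusion was delivered with a retrovirus and the cells were sorted by GFP, and the change models the human variant behind congenital dyserythropoietic anemia type IV. K1-ER cells, also derived from K1, carry the wild type protein in the same kind of fusion. Their libraries enter the authors' mean gene levels given below, and the labels give neither their number nor their treatment. RNA newly made in the cells was tagged with 4-thiouridine (4sU, 500 µM for 30 min in the labels, where the study's methods give another dose and a longer time) in 3 libraries of K1 cells and 3 of K1-E339K-ER cells, all given 200 nM 4-OHT except for 1 K1 library labelled as ethanol. ChIP-seq used an antibody to the estrogen receptor domain after 3 h of 200 nM 4-OHT and gave 1 ChIP library, pooled from 3 replicates of a single clone, beside 1 input library. The KLF1-ER concentrations of the table, for the wild type fusion protein, come from earlier libraries of the authors that were not analysed here on their own, and they are printed as the authors' mean. The KLF1-E339K-ER concentrations are listed as a mean too. How many libraries or replicates were averaged for them is not given in the sources used here.

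Mice switch between globin genes during development. Hbb-y and Hbb-bh1 encode embryonic beta-like chains made in primitive red cells, and Hbb-b1 encodes an adult beta chain whose promoter holds the CACCC box through which KLF1 is classically known to act. Upstream of Hbb-y lies the locus control region, a row of enhancers bound by GATA1, NF-E2 and KLF1 that drives the whole cluster. KLF1 reads a 9-base G-rich sequence with 3 zinc fingers, and the base that differs between the motifs compared below is base 5, which is a pyrimidine (C or T) in the usual motif and a purine (A or G) in the altered one.

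The sequences at the midpoints of the 6 sites are shown so that the letters of the motif matches can be read beside the concentrations of each site. Each line gives 201 bases of the mm9 plus strand, 5′ to 3′, centred on the midpoint, with matches to the pyrimidine or purine motif in capitals. A match that reads on the minus strand appears as its complement, so that CCCCTCCCC stands for GGGGAGGGG.
site 1, chr7:110991668-110991868: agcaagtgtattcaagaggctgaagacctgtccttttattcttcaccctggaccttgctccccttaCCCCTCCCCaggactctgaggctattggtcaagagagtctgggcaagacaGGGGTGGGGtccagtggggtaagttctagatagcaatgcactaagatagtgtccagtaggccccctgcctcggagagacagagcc
site 2, chr7:110993190-110993390: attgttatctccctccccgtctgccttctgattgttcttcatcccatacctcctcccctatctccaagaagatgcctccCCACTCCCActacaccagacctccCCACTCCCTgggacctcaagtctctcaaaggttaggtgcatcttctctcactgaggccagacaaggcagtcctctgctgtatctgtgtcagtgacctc
site 3, chr7:111007667-111007867: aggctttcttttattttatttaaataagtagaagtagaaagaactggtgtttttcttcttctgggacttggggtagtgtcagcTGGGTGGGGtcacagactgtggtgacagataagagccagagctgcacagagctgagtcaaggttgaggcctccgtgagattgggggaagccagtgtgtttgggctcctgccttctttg
site 4, chr7:111009575-111009775: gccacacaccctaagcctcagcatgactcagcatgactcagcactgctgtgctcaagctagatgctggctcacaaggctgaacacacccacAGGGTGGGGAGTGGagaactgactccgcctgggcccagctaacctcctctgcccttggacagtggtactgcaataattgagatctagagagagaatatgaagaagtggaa
site 5, chr7:111019318-111019518: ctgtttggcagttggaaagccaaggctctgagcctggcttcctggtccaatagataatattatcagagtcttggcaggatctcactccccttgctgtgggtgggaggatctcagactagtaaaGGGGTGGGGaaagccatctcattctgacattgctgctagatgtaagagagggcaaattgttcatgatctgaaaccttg
site 6, chr7:111061767-111061967: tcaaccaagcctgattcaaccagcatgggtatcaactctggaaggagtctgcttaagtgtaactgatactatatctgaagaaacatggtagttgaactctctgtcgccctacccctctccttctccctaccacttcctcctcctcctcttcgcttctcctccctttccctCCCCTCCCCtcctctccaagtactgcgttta

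The pyrimidine motif was searched as NGGGCGGGG, NGGGCGTGG, NGGGTGGGG and NGGGTGTGG, and the purine motif as NGGGAGGGG, NGGGAGTGG, NGGGGGGGG and NGGGGGTGG, on both strands over the whole width of each site. Of the 6 sites, 4 held a pyrimidine match, beside 58.6% of all 5551 sites, and 4 held a purine match, beside 58.4% of all sites. Sites 3 and 5 held the pyrimidine motif only, sites 2 and 6 the purine motif only, and sites 1 and 4 held both. Every pyrimidine match of the locus had T at base 5 and every purine match had A. Over all sites, C at base 5 occurred in a match at 1893 sites and G at 2006 sites, and the locus had neither.

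Each site of the locus was then described by its log2 concentration, which is the log2 of the normalised read count that the authors list per protein. A site was called higher for a protein when its concentration exceeded that of the other by at least 2 on the log2 scale, which is 4-fold. By this rule 3 of the 6 sites were higher for KLF1-E339K-ER, beside 55.3% of all sites, 2 were higher for KLF1-ER, beside 23.3%, and 1 was within 4-fold, beside 21.4%. These counts lie near the shares over the whole table. There is 1 value per protein and site, so the spread between replicates is unknown for every concentration, and no difference between sites or proteins was tested.

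**Figure D1:**
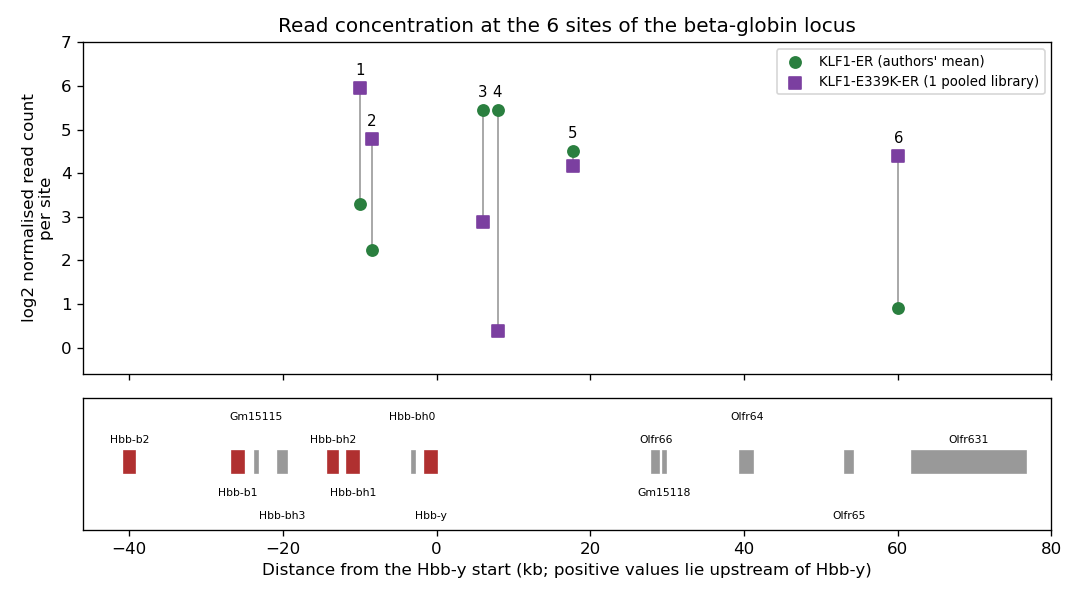
Log2 concentration (vertical axis) of KLF1-ER (circles) and KLF1-E339K-ER (squares) at sites 1 to 6, both as the authors' listed means. For KLF1-E339K-ER the labels give 1 pooled ChIP library, and how many were averaged is not given. Sites are placed by their distance in kb from the Hbb-y start (horizontal axis). Annotated genes are drawn below (protein-coding beta-like globin genes in red, others in grey). KLF1-E339K-ER lies above KLF1-ER at sites 1 and 2 near Hbb-bh1 and at the distant site 6, and below it at sites 3 and 4 upstream of Hbb-y.

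Near Hbb-bh1 the mutant protein gave the higher concentrations. Site 1, at chr7:110991599-110991937, overlapped the first exon of Hbb-bh1 in the GENCODE M1 annotation, with its midpoint 90 bp upstream of the gene's start. Its concentration was 5.96 for KLF1-E339K-ER (62.2 normalised reads) and 3.30 for KLF1-ER (9.85 reads), a difference of 2.66 or 6.32-fold. The mutant value was above those of 83.2% of all sites and the wild type value above those of 53.5%. In the 201 bases shown above, site 1 held the purine match GGGGAGGGG on the minus strand 30 bp before the midpoint and the pyrimidine match GGGGTGGGG on the plus strand 20 bp after it.

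Site 2, at chr7:110993120-110993460, lay in intergenic sequence 1.61 kb upstream of the Hbb-bh1 start. Its concentration was 4.78 for KLF1-E339K-ER (27.5 reads) and 2.23 for KLF1-ER (4.69 reads), a difference of 2.55 or 5.86-fold. Site 2 held 3 purine matches, all on the minus strand. Of these, AGGGAGTGG lay 7 bp after the midpoint, TGGGAGTGG 17 bp before it, and GGGGAGGGG 166 bp before it, outside the bases shown. The site had no pyrimidine match.

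Upstream of Hbb-y, where the locus control region lies, the wild type protein gave the higher concentrations at the first pair of sites. Site 3, at chr7:111007604-111007930 and 6.01 kb upstream of the Hbb-y start, was listed at 5.45 for KLF1-ER (43.7 reads) and 2.87 for KLF1-E339K-ER (7.31 reads). The mutant value was lower by 5.98-fold and stood above those of 18.8% of all sites. The 1 match of site 3 was the pyrimidine TGGGTGGGG, on the plus strand 13 bp before the midpoint.

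Site 4, at chr7:111009520-111009830 and 7.92 kb upstream of Hbb-y, had the same KLF1-ER concentration as site 3, 5.45, above those of 83.0% of all sites. For KLF1-E339K-ER it was listed at 0.39, or 1.31 normalised reads, which is the fourth lowest value the mutant takes in the table, with 4.22% of sites below. The mutant concentration was thus lower by 33.4-fold, and 20.2% of all sites had a larger difference in either direction. Site 4 held a pyrimidine and a purine match that overlap on the plus strand, AGGGTGGGG and GGGGAGTGG, and together they read AGGGTGGGGAGTGG across the midpoint.

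Site 5, at chr7:111019242-111019595 and 17.7 kb upstream of Hbb-y, had nearly equal listed concentrations, 4.50 for KLF1-ER (22.6 reads) and 4.17 for KLF1-E339K-ER (18.0 reads). The difference was 1.26-fold, and 97.2% of all sites had a larger one. Its 1 match was the pyrimidine GGGGTGGGG, the same 9 bases as in site 1, 26.5 bp after the midpoint. Site 6, at chr7:111061706-111062028, lay 60.1 kb upstream of Hbb-y among olfactory receptor genes, and its closest start in the deposited table was that of Olfr631, 1709 bp away. It was listed at 4.39 for KLF1-E339K-ER (21.0 reads) and 0.91 for KLF1-ER (1.88 reads), a difference of 11.2-fold. The KLF1-ER value is the third lowest distinct value listed for that protein, and 30.3% of all sites lie below it. The 1 match of the site was the purine GGGGAGGGG on the minus strand, 74 bp after the midpoint.

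Summed over the 6 sites, which cover 1995 bp, both proteins had similar listed totals, 126 normalised reads for KLF1-ER and 137 for KLF1-E339K-ER, but spread over the locus in unlike ways. The 2 sites near Hbb-bh1 held 11.5% of the KLF1-ER total (14.5 of 126 reads over 680 bp) and 65.3% of the KLF1-E339K-ER total (89.7 of 137 reads). Sites 3 to 5, the 3 between Hbb-y and the olfactory receptor genes upstream of it, held 87.0% of the KLF1-ER total (110 reads over 992 bp) and 19.4% of the KLF1-E339K-ER total (26.6 reads). Site 6, near Olfr631, held 1.49% and 15.3%. Such sums cover the listed sites only.

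**Figure D2:**
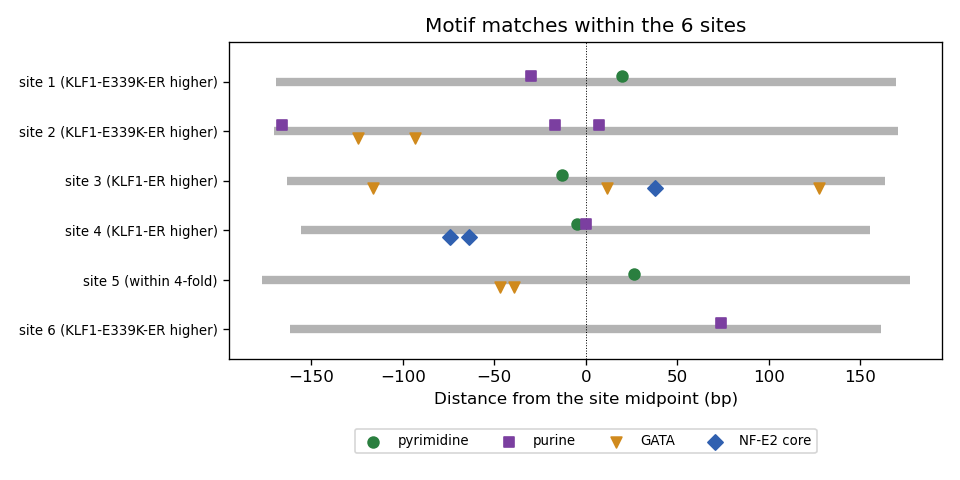
Positions of the motif matches within sites 1 to 6 in bp from the site midpoint (horizontal axis), with each site drawn to its width as a grey bar and its call in brackets. Circles are pyrimidine and squares purine matches, triangles GATA and diamonds NF-E2 core matches, and NF-E2 cores appear in sites 3 and 4 alone.

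Letters read by other erythroid factors were also looked for, chosen after the sequences had been seen. The GATA motif, searched as AGATAA or TGATAA on both strands, is the sequence bound by GATA1, and TGAGTCA is the core bound by NF-E2. Sites 2, 3 and 5 held 2, 3 and 2 GATA matches, so that 3 of the 6 sites had at least 1, beside 32.3% of all sites, and the same 3 had at least 2, beside 9.06%. Site 3 had 1 NF-E2 core and site 4 had 2, and both lie upstream of Hbb-y, beside 6.43% of all sites with at least 1 core. The 2 cores of site 4, on the minus strand 64 and 74 bp before the midpoint, start 10 bp apart, and 33 sites of the table (0.594%) had as many. Sites 1 and 6 held no match to either. Sites 3 and 4 were both higher for KLF1-ER, whereas of the 357 sites of the table with an NF-E2 core 18.5% were higher for KLF1-ER and 59.4% for KLF1-E339K-ER, near the shares over all sites. The annotation used here does not mark the hypersensitive sites of the locus control region, so the sites were not given their names. A match describes letters and not a bound factor.

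The locus was set against the same motifs over the whole table. Of 1293 sites with the purine motif only, 81.7% were higher for KLF1-E339K-ER and 4.25% for KLF1-ER, and sites 2 and 6 were among the former. Of 1303 sites with the pyrimidine motif only, 54.0% were higher for KLF1-ER, among them site 3, and 24.3% for KLF1-E339K-ER, while site 5 fell within 4-fold. Of 1948 sites with both motifs, 55.6% were higher for KLF1-E339K-ER, as site 1 was, and 17.0% for KLF1-ER, as site 4 was. The remaining 1007 sites held neither motif, and no site of the locus was among them.

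**Figure D3:**
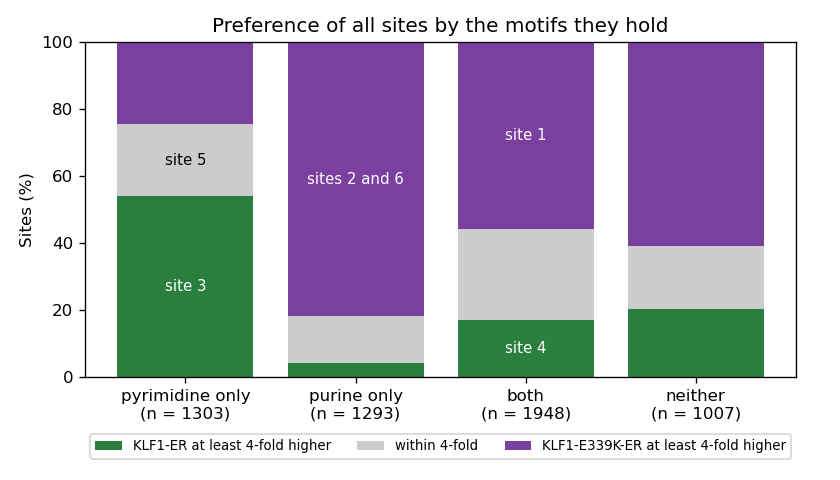
Percent of all sites (vertical axis, 0 to 100) higher for KLF1-ER (green, bottom), within 4-fold (grey) or higher for KLF1-E339K-ER (purple, top), by the motifs they hold (horizontal axis, with the number of sites). The sites of the locus are written into the part of the bar that holds them, and site 4 stands in the smallest part of its bar, the 17.0% of sites with both motifs that were higher for KLF1-ER.

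The exact letters of the matches were followed over the table as well, as a description. GGGGAGGGG, which sites 1, 2 and 6 hold, occurred in 1020 sites with a median difference, KLF1-E339K-ER minus KLF1-ER, of 3.50 on the log2 scale, and 67.4% of them were higher for the mutant protein. GGGGTGGGG, held by sites 1 and 5, occurred in 1073 sites, of which 58.3% were higher for the mutant protein although T at base 5 belongs to the usual motif. AGGGTGGGG of site 4 and TGGGTGGGG of site 3 occurred in 354 and 314 sites, with median differences of 0.79 and 0.62. AGGGAGTGG and TGGGAGTGG, both of site 2, occurred in 188 and 115 sites with median differences of -0.38 and 2.77, and GGGGAGTGG of site 4 in 160 sites with a median difference of 3.37. Sites often hold several matches, so these groups share sites.

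The bases on which the locus stands lay between the extremes. Sites whose matches all had T at base 5, as sites 3 and 5 do, numbered 435 and were higher for KLF1-ER in 42.3% and for KLF1-E339K-ER in 32.4%. Where all matches had C, the shares were 59.4% and 21.3% of 635 sites. Sites whose matches all had A, as sites 2 and 6 do, numbered 551 and were higher for KLF1-E339K-ER in 72.4%, beside 89.5% of 456 sites whose matches all had G.

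**Figure D4:**
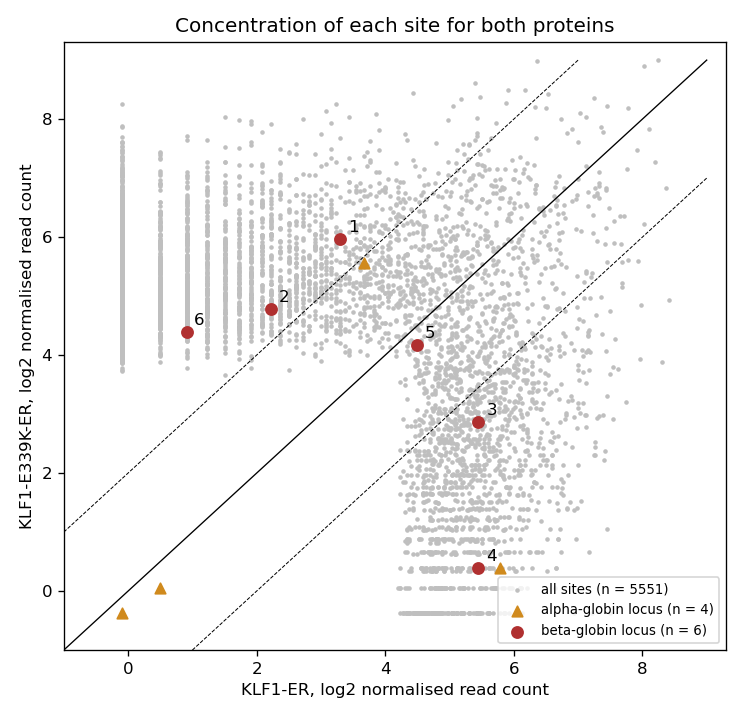
Log2 concentration of all 5551 sites for KLF1-ER (horizontal axis) and KLF1-E339K-ER (vertical axis), with the 6 sites of the beta-globin locus as numbered red circles and the 4 sites near the alpha-like globin genes as triangles. The solid line marks equal values and the dashed lines a 4-fold difference, with sites 1, 2 and 6 above the upper dashed line, sites 3 and 4 below the lower and site 5 between them.

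The alpha-like globin genes on chromosome 11 had 4 sites near them. One of these, at chr11:32150892-32151195, was listed at 5.79 for KLF1-ER and 0.39 for KLF1-E339K-ER, values close to those of site 4, and it held no match to either motif. A site at chr11:32156127-32156440 was listed at 3.67 for KLF1-ER and 5.56 for KLF1-E339K-ER. The pair nearest Hba-a1, 89.5 and 71.5 bp from a listed start, was at 0.50 or lower for both proteins. The adult alpha genes are near-identical and the authors removed multi-mapped ChIP reads. Whether this lowered the values of the pair was not tested, and they were not read as a lack of binding. In the beta-globin locus no site was at the lowest value listed for either protein, -0.09 for KLF1-ER and -0.38 for KLF1-E339K-ER. The table lists no site between the locus and positions 1.48 Mb below and 1.6 Mb above it, where the nearest sites are those at Stim1 and Smpd1.

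No site was listed at the promoters of Hbb-b1, Hbb-bh2 or Hbb-y. The authors removed multi-mapped ChIP reads, and the coding sequences of Hbb-b1 and Hbb-b2 are 99.8% identical. Whether this affected the adult promoters was not tested, and the missing site was not read as a lack of binding. The paper counts the beta-globin promoter among the canonical targets that the mutant protein binds less. Promoter sequences were read from RefSeq (table of GRCm38.p6, the 250 bases before each start and a short stretch after it). Those of Hbb-bs, Hbb-bt, Hbb-bh2 and Hbb-y matched mm9 chromosome 7 exactly once each. Hbb-b1 and Hbb-bh1 had no entry. The Hbb-bs sequence overlaps the beginning of the gene that GENCODE M1 names Hbb-b1, and that of Hbb-bt the gene it names Hbb-b2. The former is shown because it carries the CACCC box of an adult beta-globin gene, in capitals, whose complement is the pyrimidine match AGGGTGTGG and which begins 93 bp before the RefSeq start.
Hbb-bs promoter, chr7:110976443-110976692, minus strand: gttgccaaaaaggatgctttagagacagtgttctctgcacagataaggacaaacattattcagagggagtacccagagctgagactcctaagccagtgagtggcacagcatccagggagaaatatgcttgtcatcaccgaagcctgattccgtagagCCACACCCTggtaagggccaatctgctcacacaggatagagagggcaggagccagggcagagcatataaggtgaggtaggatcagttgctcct

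The promoters of Hbb-bt, Hbb-bh2 and Hbb-y held no exact match to either motif in the 250 bases before the start or the short stretch after it. This says only that these letters are not there. Over all 32851 promoters of that table, searched over the same stretch, 29.7% held a pyrimidine match and 22.6% a purine match. AGGGTGTGG occurred in 161 sites of the peak table, of which 46.0% were higher for KLF1-ER and 26.7% for KLF1-E339K-ER, with a median difference of -1.67.

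The level of each gene is the authors' mean log2 CPM, a read count scaled to library size, over all 4sU-RNA libraries of their fit. It is 1 value per gene across K1 and K1-E339K-ER cells and the K1-ER cells of the other comparison, so no level by group and no change on induction is given here. The ranks and folds below thus mix cells with no KLF1, mutant KLF1 and wild type KLF1. The tables also hold the authors' own comparison columns, which were not used. Hbb-bh1 had a mean log2 CPM of 6.74 (107 CPM), Hbb-y 4.29 (19.6 CPM), Hbb-b1 3.87 (14.6 CPM) and Hbb-bh2 0.90 (1.86 CPM).

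Per kb of listed gene length, the scale on which genes are compared with each other below, the order was the same. Hbb-bh1 stood at 6.13 on the log2 scale, above 98.8% of all genes, Hbb-y at 3.75, above 90.9%, Hbb-b1 at 3.39, above 88.3%, and Hbb-bh2 at 0.42, above 43.0%. The embryonic gene Hbb-bh1 was thus listed 5.21-fold above Hbb-y, the other embryonic gene, 6.7-fold above Hbb-b1 and 52.7-fold above Hbb-bh2. Hbb-y and Hbb-b1 were 1.29-fold apart, and with no spread between libraries it cannot be said whether these neighbours differ. Lengths of 1396 to 1525 bp were listed for these 4 genes, against a median of 20990 bp over all genes, so the scale moves them up in rank. Without it Hbb-bh1 stood above 77.1% of genes, Hbb-y above 35.0%, Hbb-b1 above 30.1% and Hbb-bh2 above 8.16%.

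The adult genes are close copies of each other. In the GENCODE M1 coding sequences Hbb-b1 and its neighbour Hbb-b2 were identical at 443 of 444 positions (99.8%), whereas Hbb-bh1 and Hbb-y shared 76.4% and the other pairs among the 4 genes 66.7% to 74.3%. The tables list 2 adult rows with different Entrez numbers, Hbb-b1 at 3.87 and Hbb-bs at 3.81 mean log2 CPM, and no chromosome for the former. Whether these rows share reads could not be worked out. The authors removed reads of low mapping quality, and how reads of such copies were split or dropped is not given in the sources used here, so both adult values are uncertain. Of the 19 genes annotated in the window, 4 were listed, and none of the 10 olfactory receptor genes was.

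**Figure D5:**
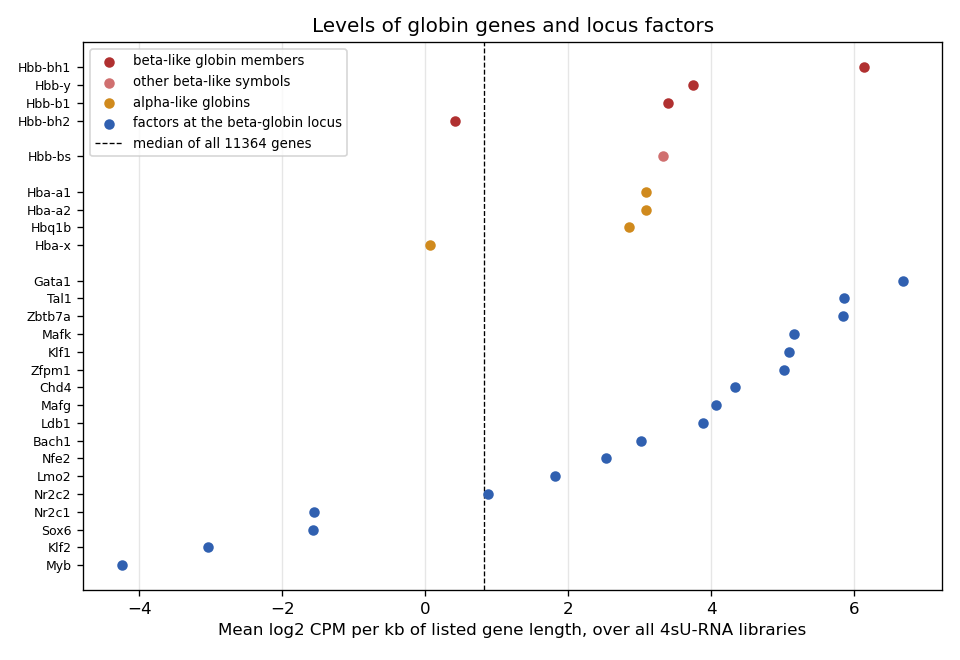
Mean log2 CPM per kb of listed gene length (horizontal axis, the authors' mean over all 4sU-RNA libraries) of the beta-like globin genes, Hbb-bs, the alpha-like globin genes and factors known at the locus, each a point, with a dashed line at the median of all genes, 0.82. Hbb-bh1 lies furthest right among the globin genes and Hbb-bh2 and Hba-x lie left of the line.

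The alpha-like genes, whose chains pair with the beta-like ones in hemoglobin, were compared on the same scale. Hba-a1 and Hba-a2, the near-identical adult alpha genes, both stood at 3.09 per kb, Hbq1b at 2.85 and the embryonic zeta gene Hba-x at 0.06, while Hbq1a was not listed. Of 20 symbols of factors known to act at the beta-globin locus, 18 were listed, from -4.24 per kb for Myb to 6.68 for Gata1. Tal1, the partner of GATA1 in its complexes, was at 5.86 per kb, Zbtb7a, a repressor of embryonic and fetal globin genes, at 5.84, and Nfe2, a subunit of NF-E2, at 2.52. Klf1 was at 5.09 per kb in a mean that includes the fusion genes. Bcl11a, another repressor of embryonic globin genes, and Klf3 were not listed, and the row named Tcf3 carries the identifier of another gene and was left out of the plot of levels.

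The cells' label was checked by marker genes. All 10 erythroid markers were listed, at mean log2 CPM of 5.29 (Alas2) to 9.79 (Gata1). Of 5 megakaryocyte markers 3 were listed (1.79 to 5.30), and of 4 mast cell markers Kit alone (6.95), which early erythroid cells also express. Of 6 macrophage symbols 3 were listed (0.24 to 3.69), but Emr1 and Adgre1 name the same gene, so these were 2 genes. Of 5 hepatocyte markers 0 were listed. Per kb of listed gene length, the erythroid markers ran from 0.75 (Alas2) to 6.68 (Gata1). On that scale the megakaryocyte markers Itga2b, Gp9 and Vwf stood at 1.25, 1.08 and -1.78, so these lists overlap. Kit stood at 0.60 per kb and the macrophage genes at -0.52 or lower. Since the levels are means over all libraries, whether such markers move with a group was not tested.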

How the data were processed

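The labels give 3 K1 and 3 K1-E339K-ER libraries of 4sU-RNA, with 1 library each of ChIP and input DNA from K1-E339K-ER cells. The authors sequenced on the Ion Proton and mapped reads to mm9, RNA with TopHat2 (2.0.10 in the submitters' processing notes) and TMAP, and ChIP with TMAP. They removed RNA reads of low mapping quality and duplicate or multi-mapped ChIP reads, fitted genes with limma-voom, called peaks with MACS2 and GEM, and merged them in DiffBind. The counting tool and gene annotation are not given in the sources used here. The values used are log2 values as deposited: the authors' mean log2 CPM per gene, and DiffBind's log2 concentration per site and protein. The authors' fold changes, t, p-values and FDR were not used. Depth per library is unknown, since the tables hold no counts, and no interval can be given. The lowest listed value was shared by 1424 of 5551 sites for KLF1-ER (-0.09, or 0.94 normalised reads). For KLF1-E339K-ER it was shared by 147 sites (-0.38, or 0.768 normalised reads).

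Here the difference of both concentrations was taken per site. Sequences came from NCBIM37 (mm9) and genes from GENCODE M1, and no site ran past a chromosome end. Site positions were read as counted from 1. Motifs were searched with Python 3.11.15 and pandas 2.3.3, after tests on simulated sequences with planted motifs. Both gene tables agreed in length, mean and Entrez number for all 11364 rows. Named are the 4 genes, every site of the locus, and the listed genes of the fixed lists. The members and lists were chosen with earlier results of these data known. The GATA and NF-E2 letters, the counts by exact 9-base match and by base 5, and the analyses of overlapping, nearest and neighbouring matches or sites were chosen after the sequences and values had been seen. The alternatives were other differences, backgrounds, windows around the midpoint, mismatches and rankings.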

Additional observations from a re-analysis of the deposited data

How the results depend on the processing

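With a difference of 3 on the log2 scale in place of 2, KLF1-E339K-ER was higher at 1 site of the locus (site 6) and KLF1-ER at 1 (site 4), beside 46.8% and 16.0% of all sites. With a difference of 1 the counts stayed at 3 and 2, beside 61.5% and 28.7%. The shares over all sites were 52.9% and 24.7% among sites with a concentration of at least 5 for 1 protein, and 41.3% and 28.9% once sites at the lowest listed values were left out. A window 100 kb wider on each side added no site. Within 50 bp of the midpoint, 4 sites of the locus held a pyrimidine and 3 a purine match, beside 35.2% and 35.5% of all sites. With 1 mismatch allowed outside base 5, the counts were 6 and 5, beside 95.5% and 96.9%. Among genes with a mean log2 CPM of at least 0, Hbb-bh1 stood above 76.3%, Hbb-y above 32.9%, Hbb-b1 above 27.8% and Hbb-bh2 above 5.13%. No paired analysis was possible because the tables hold no value per library. For the same reason no library could be left out, and no error bounds any value here. Concentrations near the lowest listed values, at site 4 for the mutant protein and site 6 for the wild type, rest on the fewest reads.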

Other observations

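Sites 1 and 4, which hold both motifs, differ in which match lies nearest the midpoint. Among the 1948 sites with both motifs, 66.6% of the 1015 whose nearest match to the midpoint was purine were higher for KLF1-E339K-ER and 10.3% for KLF1-ER, against 43.6% and 24.2% of the 933 whose nearest match was pyrimidine. Site 4 had the purine match at its midpoint and was higher for KLF1-ER, the less common call among such sites. Site 1 had the pyrimidine match nearer and was higher for KLF1-E339K-ER, the more common call among such sites. The arrangement of site 4, a purine match that starts 5 bases after a pyrimidine match on the same strand, occurred in 193 sites, of which 9.33% were higher for KLF1-ER and 64.8% for KLF1-E339K-ER.

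Sites of the table that lie next to each other within 20 kb made 1949 pairs. In 1185 of these pairs both sites passed the 4-fold difference, and in 297 (25.1%) they did so in opposite directions. The beta-globin locus had 3 pairs in which both passed, and 1 of them, site 2 beside site 3 with 14143 bp between them, was opposite.

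The number of other sites near each site was also counted. Each of the 6 sites of the locus had 5 others within 100 kb, which are the same 6 sites counted from each. Of all sites, 25.5% had at least 5 others, and the median site had 2.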
